A study of Mus musculus with 6 samples.

Results

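The cells described here were the cones of the adult mouse retina that carried more short-wave than medium-wave opsin RNA, called S cones below. The cells were chosen by their counts: a photoreceptor was taken as a cone where at least 3 of 6 cone genes (Opn1sw, Opn1mw, Arr3, Gnat2, Pde6h and Pde6c) had a unique molecular identifier (UMI, 1 captured RNA molecule) and these 6 genes together made at least 1% of its UMIs. A cone was taken as an S cone where its Opn1sw UMIs exceeded its Opn1mw UMIs. This held for 611 of 926 cones, out of 42359 photoreceptors and 46375 cells in all. The name thus includes cones with UMIs of both opsins, which were 425 of the 611. The other 315 cones are called other cones, and 41181 photoreceptors with UMIs on fewer than 3 of the 6 genes and under 1% of their UMIs on them are called rods. The 6 genes chose the cells, so their values are given as a description, without a test.

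Retinal samples of Dram2 genotypes wt/wt and ko/ko, 3 of each and called retinas here, were dissociated and profiled with a droplet method that reads the 3′ end of each RNA. The labels list 3 replicates per genotype and do not tie them to separate animals, and the submitters' protocol text speaks of 1 sample per genotype, so the spread between replicates, and every SD and p-value from it, may be technical. All mice were C57BL/6J males aged 12 months, and the ko/ko mice carried a constitutive CRISPR/Cas9 deletion of exon 4 of Dram2, a gene of a lysosomal membrane protein whose loss in humans leads to a cone and rod dystrophy. By the labels, replicate 3 of both genotypes was batch 1 and the remaining 4 retinas were batch 2. Values per retina are given below in the order wt/wt replicates 1, 2 and 3, then ko/ko replicates 1, 2 and 3.

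Cones respond to bright light and carry colour vision, whereas the far more numerous rods respond to dim light. In mice, a cone makes the short-wave opsin, which absorbs ultraviolet light, the medium-wave opsin, or both, and the balance shifts from medium-wave in the dorsal retina to short-wave in the ventral retina. Thyroid hormone receptor beta (Thrb) is required for Opn1mw and restrains Opn1sw during development, and factors laid down along the dorsal to ventral axis, among them Vax2 on the ventral side and COUP-TF receptors such as Nr2f2, take part in the pattern. The labels do not give the part of the retina a cell came from.

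The promoters of both opsin genes are shown because the rule rests on the ratio of their RNAs. Each run holds the 250 bases before the start of the RefSeq transcript (GRCm38.p6), 5′ to 3′ on the gene's own strand. Capitals mark the hexamer AGGTCA or its reverse complement TGACCT, the binding half-site of nuclear receptors such as those for thyroid hormone and retinoids.
Opn1sw, chr6:29380514-29380763, minus strand: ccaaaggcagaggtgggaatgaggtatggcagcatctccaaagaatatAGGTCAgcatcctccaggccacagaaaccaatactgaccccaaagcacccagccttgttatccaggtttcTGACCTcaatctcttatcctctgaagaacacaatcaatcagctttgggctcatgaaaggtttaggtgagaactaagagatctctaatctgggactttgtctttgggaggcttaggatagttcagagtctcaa
Opn1mw, chrX:74127216-74127465, plus strand: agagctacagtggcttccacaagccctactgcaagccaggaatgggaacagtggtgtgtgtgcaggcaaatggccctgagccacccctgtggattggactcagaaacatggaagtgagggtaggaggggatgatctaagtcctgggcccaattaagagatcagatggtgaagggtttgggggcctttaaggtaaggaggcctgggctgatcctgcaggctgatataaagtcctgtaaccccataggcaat
The Opn1sw window held 2 of these hexamers, starting 202 bases before the start on the plus orientation and 132 bases before it on the opposite one, and the Opn1mw window held none. Over 32851 mouse promoter windows of this length, 14.0% held at least 1. The hexamer TAATCC, bound by the photoreceptor factor CRX, or its reverse complement GGATTA stood in neither window and in 6.25% of all windows.

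There were 100, 100, 125, 85, 109 and 92 S cones in the 6 retinas, with a median of 1726, 1823, 2365, 1730, 1832 and 2604.5 UMIs per cell. Of the 611, 353 had a UMI on all 6 cone genes, 197 on 5, 41 on 4 and 20 on 3. The 6 genes made 5.82% of the UMIs of the median S cone, and the medians of single retinas ran from 5.69% to 6.26%. Cells near the limits of the rule were shallow. The 20 S cones with just 3 of the genes had a median of 292 UMIs, and the 45 cells left out for having 2 of them at 1% or more had 168. The 11 S cones at 1% to 2% had a median of 277 UMIs, and the 29 photoreceptors with 3 of the genes at 0.5% to 1% had 587. The 15 S cones with Opn1sw ahead by 1 UMI had a median of 344 UMIs, and the 11 cones with equal UMIs of both opsins had 634.

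Opn1sw, on the minus strand of chromosome 6 from base 29376671 to 29388468, was the leading RNA of the rule in S cones. Its level in CPM, the UMIs of a gene as a rate per 1000000 UMIs of the class, was 25325, 26425, 27883, 27746, 25588 and 31247 in S cones. The mean was 27369 ± 2177 CPM (SD, n = 6 retinas) in S cones, 602 ± 424 in other cones and 170 ± 33.8 in rods. The lowest S cone value stood above every value of the other classes, which the rule makes so. Opn1mw, on the plus strand of chromosome X from base 74127464 to 74150760, had 2202 ± 487 CPM in S cones, 7325 ± 857 in other cones and 47.3 ± 6.50 in rods (SD, n = 6 each).

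The other cone genes of the rule differed less between the cone classes. Arr3, the cone arrestin that quenches the activated opsin, had 9539, 8756, 5926, 7469, 8315 and 5890 CPM in S cones and 15400, 14577, 10808, 10275, 12227 and 9284 in other cones. It was lower in S cones in 6 of 6 retinas, with a mean ratio of 0.635. Gnat2, the alpha subunit of cone transducin, had 4579 ± 275 CPM in S cones and 4518 ± 442 in other cones, and Pde6c, the catalytic subunit of the cone phosphodiesterase, had 1165 ± 207 and 1174 ± 118 (SD, n = 6 each). Pde6h, the inhibitory subunit of that enzyme, had a mean ratio of 0.948 and was lower in S cones in 6 of 6 retinas, with a highest ratio of 0.999. The totals behind these rates include Opn1sw, whose high level in S cones lowers the rates of other genes there.

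Most S cones held UMIs of both opsins. Opn1mw had a UMI in 425 of 611 S cones, or 69.6% (Wilson 95% interval 65.8% to 73.1%). The share with a UMI was 2.18% in rods at a median of 422 UMIs, 6.90% in glia at 1683 UMIs and 8.55% in interneurons at 1844 UMIs, against a median of 1866 UMIs in S cones. Opn1sw in turn had a UMI in 33.7% of other cones, in 7.34% of rods, in 18.6% of glia and in 23.1% of interneurons. Cut to 500 UMIs per cell, with shallower cells left out, the share with an Opn1mw UMI was 51.3% in S cones and 2.03% in rods, and the share with an Opn1sw UMI was 15.6% in other cones and 7.40% in rods. Both opsins belong to the rule, so these shares are a description. The interval covers counting error only.

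Within single S cones, Opn1sw outnumbered Opn1mw by a wide margin. The median S cone had 49 Opn1sw UMIs and 3 Opn1mw UMIs, and Opn1sw made 95% of the UMIs of both opsins. By retina this median was 95.4%, 94.6%, 95.5%, 95%, 95.2% and 92.6%, lowest in ko/ko replicate 3, the retina with the deepest S cones. In 428 S cones (70.0%) Opn1sw made at least 90% of the opsin UMIs. No Opn1mw UMI was seen in 186 S cones (30.4%), which were 35, 34, 35, 27, 38 and 17 cells by retina. Counted over all cones with an opsin UMI, in steps of 10 percentage points of the Opn1sw share, the lowest step held 254 cones and the highest 428, while the 5 steps from 20% to 70% held 14, 6, 8, 17 and 15. Cones near the even ratio at which the rule divides them were therefore few.

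**Figure D1:**
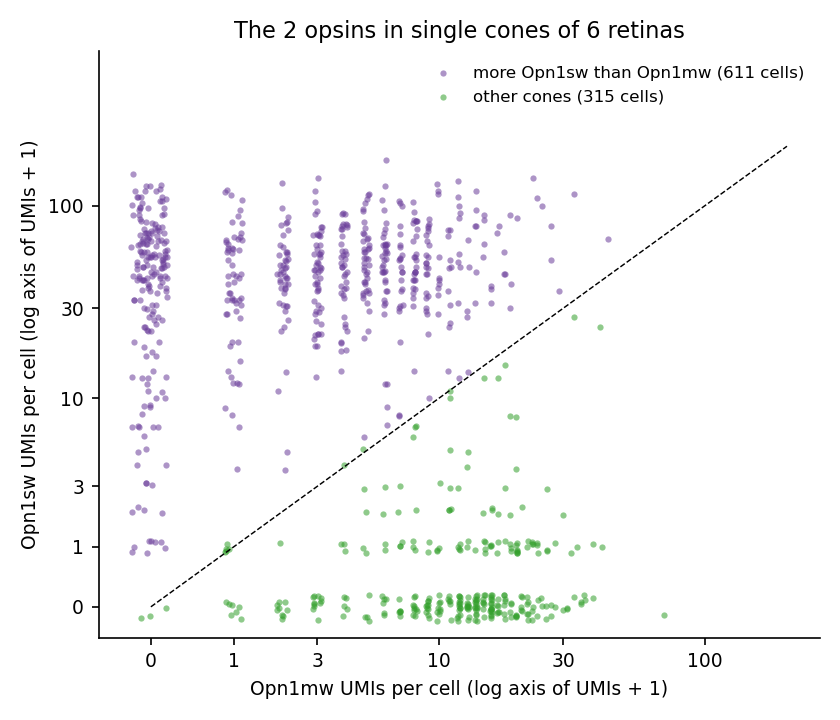
Opn1mw UMIs (x axis) against Opn1sw UMIs (y axis) of single cones, both on a log axis of UMIs plus 1 with a small jitter, 1 point per cell over 6 retinas. The 611 S cones (purple) lie above the dashed line of equal UMIs and the 315 other cones (green) on or below it, and 186 S cones stand at 0 Opn1mw UMIs.

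The share of S cones among cones did not differ between genotypes beyond the spread between retinas. They were 67.6%, 66.7% and 59.8% of the cones in wt/wt and 78.7%, 65.3% and 63.9% in ko/ko. The means were 64.7% ± 4.24 and 69.3% ± 8.18 (SD, n = 3 each), and the difference of 4.61 percentage points gave p = 0.60 by a two-sided exact permutation test, for which 3 retinas against 3 cannot go below 0.10. The difference was 4.87 points within batch 2 and 4.08 within batch 1, which holds 1 retina per genotype. ko/ko replicate 1 was the highest of the 6, and without it the difference of the means, with the batches then unequal between genotypes, was -0.102 points.

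As a share of all photoreceptors, S cones were 1.42%, 1.44% and 2.10% in wt/wt and 1.29%, 1.45% and 1.11% in ko/ko. The ranges of the genotypes overlapped. The means were 1.65% ± 0.385 and 1.28% ± 0.174 (SD, n = 3 each), with a difference of -0.371 points and p = 0.30 by the exact permutation test. The difference was -0.0609 points within batch 2 and -0.991 between both retinas of batch 1, so nearly all of it came from wt/wt replicate 3 (Wilson 95% interval 1.76% to 2.49%) and ko/ko replicate 3 (0.903% to 1.35%). Over the 8 measures per retina compared between genotypes, no adjusted p was below 1.00.

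**Figure D2:**
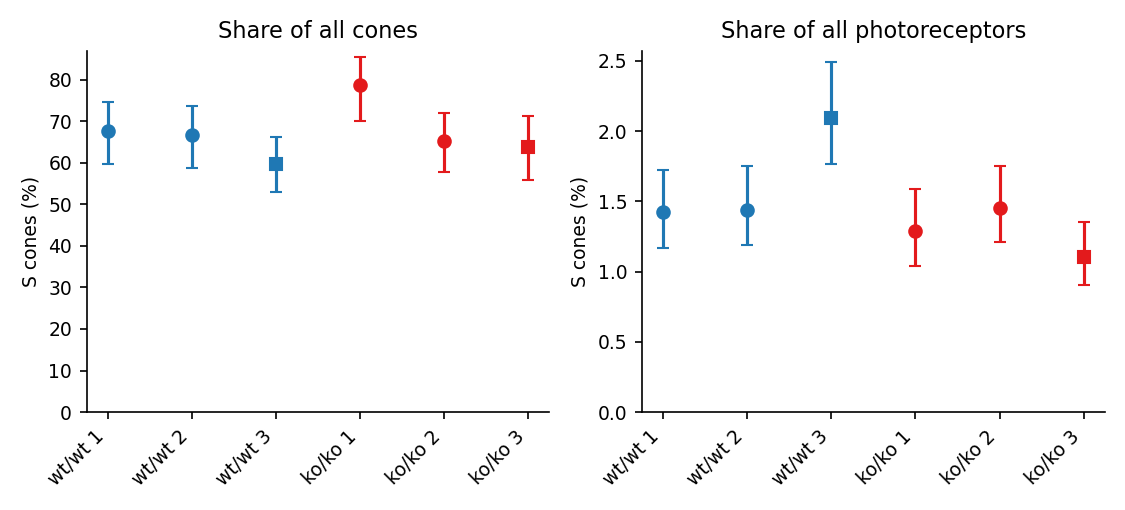
S cones as a percent of all cones (left) and of all photoreceptors (right) in each retina, with Wilson 95% intervals for counting error, wt/wt in blue, ko/ko in red, circles for batch 2 and squares for batch 1. On the left ko/ko replicate 1 stands highest at 78.7%, and on the right wt/wt replicate 3 stands highest at 2.10%.

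S cones were compared with the other cones of the same retinas to find which genes beyond the opsins differ between both classes. Since most S cones also held Opn1mw UMIs, the class is not one of cones with Opn1sw alone. Counts were summed per retina and class with the 6 genes of the rule left out, and CPM below are rates over the UMIs outside these genes. The comparison used edgeR's quasi-likelihood test with the retina as a block and Benjamini-Hochberg adjustment, with calls made where the adjusted p was under 0.05. The variance behind these p-values, here and in the other edgeR fits, is pooled over genes. Very small p-values therefore do not measure the spread of 1 gene over 6 retinas. Of 2816 genes tested, 64 (2.27%) were called, 32 higher in S cones (1.14%) and 32 lower (1.14%), and 278 (9.87%) had an unadjusted p under 0.05. The highest in S cones by far were Ccdc136, the gene next to Opn1sw, together with Syndig1l, A930009A15Rik, 5430419D17Rik and Socs3, and the lowest were Gm44532 and B130024G19Rik, noncoding genes beside Nr2f2.

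Ccdc136 encodes a coiled-coil protein and lies on the plus strand of chromosome 6 from base 29396309 to 29426994. Its start lies 7841 bp beyond the 5′ end of the GENCODE span of Opn1sw, which is on the opposite strand. The RefSeq start behind the promoter window shown above lies inside that span. Ccdc136 had 2126, 2281, 1437, 1675, 2135 and 1403 CPM in S cones and 325, 256, 136, 246, 145 and 107 in other cones. All S cone values stood above all values of other cones, and both classes were lowest in the batch 1 retinas. In the fit the log2 difference was 3.30 with a standard error of 0.11 (adjusted p = 2.92e-192), and the ratio of pooled counts was 9.85 (95% interval 8.11 to 12.1, counting error only). Gm26220, an annotated miRNA gene, lies inside Ccdc136 on the same strand, so its difference (log2 2.62, adjusted p = 4.69e-20) cannot be told apart from that of Ccdc136. For other neighbours of Opn1sw, chosen after their values were seen, no difference was detectable. Calu, which overlaps the 3′ end of the Opn1sw span, had 34 UMIs in S cones and 15 in other cones, a ratio with an interval of 0.642 to 2.39. Atp6v1f, 79250 bp away, had a log2 fold change of -0.09 (adjusted p = 0.923).

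Syndig1l, a relative of the synapse protein SynDIG1, was far higher in S cones than in the other photoreceptors. It had 257, 279, 262, 359, 264 and 289 CPM in S cones, 5.93 to 27.3 in other cones and 0.667 to 2.12 in rods, with no overlap between the classes. Over other cones this was 4.43 ± 0.32 (standard error) on the log2 scale, with adjusted p = 2.34e-41. A930009A15Rik was counted 127 times in S cones (18, 25, 23, 16, 31 and 14 UMIs) and 1 time in other cones, a ratio of 67.8 with a counting interval of 12.0 to 2700.4 (adjusted p = 5.15e-19). Its fitted log2 difference of 5.49 was 4.12 by limma-voom and 7.07 without wt/wt replicate 1, the retina of the single count in other cones, where the fitted value depends on the prior count. Socs3, which dampens cytokine signalling, had 100 UMIs in S cones (11, 18, 22, 10, 17 and 22) and 3 in other cones, a ratio of 17.8 (5.92 to 87.8, adjusted p = 2.08e-12), and its fitted log2 difference of 3.96 was 3.36 by limma-voom and 4.92 without ko/ko replicate 3. 5430419D17Rik had 143 UMIs against 5, a ratio of 15.3 (6.40 to 47.8, adjusted p = 6.66e-18), but rods also held it at 63.2 ± 10.2 CPM against 128 ± 41.6 in S cones (SD, n = 6 each).

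Several genes of the light response were higher in S cones by smaller amounts. Of 20 cone phototransduction genes outside the rule, 18 were tested, 6 were higher and none was lower, beside 1.14% higher and 1.14% lower over all 2816 genes, and the median log2 fold change was 0.24, beside 0.00. The list was chosen with earlier results of these data known and also holds Kcne2 and Ccdc136, so these counts are a description. Guca1a, the calcium sensor that activates guanylate cyclase, had 5946, 6223, 6857, 8733, 6521 and 8560 CPM in S cones and 4238, 4310, 5622, 5633, 4282 and 5791 in other cones. The classes did not overlap, and the fitted difference was 0.53 ± 0.05 (standard error) in log2, with adjusted p = 7.32e-23. Kcne2, an accessory subunit of potassium channels, had 845 ± 131 CPM in S cones and 544 ± 145 in other cones (SD, n = 6 each, log2 0.66, adjusted p = 1.51e-09). Gngt2 and Gnb3, the gamma and beta subunits of cone transducin, were higher in 6 of 6 retinas by log2 0.25 and 0.24 (adjusted p = 2.93e-05 and 0.000434). Guca1b, the second calcium sensor of the cyclase, was higher by log2 0.35 (adjusted p = 0.0419), a call that held in 8 of 15 other settings. The remaining gene of this list that rose was Ccdc136, described above, whose part in the light response the data do not show.

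Genes known from rods moved both ways. Of 19, 18 were tested, 1 was higher and 3 were lower, beside 1.14% higher and 1.14% lower over all 2816 genes. Their median log2 fold change was -0.08. Sag, the arrestin of rods that mouse cones also carry, had 8222, 8424, 8636, 10928, 8821 and 10685 CPM in S cones and 6500.2, 5699, 7780.3, 6590.5, 6162 and 9540.5 in other cones. It was higher in S cones in 6 of 6 retinas, by 0.41 ± 0.05 (standard error) in log2, with adjusted p = 4.22e-15, whereas Arr3 was lower. Phosducin (Pdc), which binds free transducin subunits, was lower by log2 -0.27 (adjusted p = 0.00021) in 6 of 6 retinas. Gnb1, the rod transducin beta subunit, was lower by log2 -0.24 (adjusted p = 0.0426), but this call held in 2 of 15 other settings. Summed over the list, rod genes took 3.55% ± 0.385 of the UMIs of the median S cone and 3.29% ± 0.403 of the median other cone (SD, n = 6 retinas each). The sum was higher in S cones in 6 of 6 retinas, but it includes Sag and weighs genes by their UMIs. Of the 18 genes tested singly, 11 had a negative log2 fold change and 7 a positive one. How far RNA from rods moved these values was not tested.

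Other genes with small p were also higher in S cones. Glo1, which detoxifies methylglyoxal, had 701 ± 43.9 CPM in S cones and 409 ± 113 in other cones (SD, n = 6 each), without overlap (log2 0.86, adjusted p = 5.72e-13). Mir124-2hg, a host transcript of the neuronal microRNA miR-124, was higher in 6 of 6 retinas (log2 0.83, adjusted p = 9.73e-15). Ssbp4, a DNA-binding protein chosen here after its values were seen because it held in every setting, had 503 ± 49.3 and 281 ± 46.2 CPM (log2 0.84, adjusted p = 3.47e-09). Of 22 genes of glycolysis and energy supply, 19 were tested and 2 were higher, beside 1.14% over all 2816 genes, with a median of 0.01. These were Tpi1 (log2 0.38, adjusted p = 0.0195) and Hk2 (log2 0.29, adjusted p = 0.0087). The call of Tpi1 held in 8 of 15 other settings and was lost, among others, without wt/wt replicate 2 or 3 or ko/ko replicate 2. Hexokinase Hk2 was higher in 4 of 6 retinas, and its call held in 9 of 15 other settings.

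The genes that fell most in S cones lay at 1 locus. Gm44532, a noncoding gene on the minus strand of chromosome 7 from base 70420915 to 70453222, had 2, 5, 3, 0, 1 and 1 UMIs in S cones and 20, 23, 36, 6, 19 and 21 in other cones, although S cones were more numerous. Its level was 10.7 ± 9.98 CPM against 212 ± 36.1 (SD, n = 6 each), without overlap, and the log2 difference was -4.14 ± 0.32 (standard error), with adjusted p = 7.61e-36. B130024G19Rik, from base 70364910 to 70489972 on the plus strand, overlaps it and had 17 UMIs against 94 (log2 -3.31, adjusted p = 1.89e-22). The 2 genes cannot be told apart where reads fall in the overlap, since the use of strand in counting is not given in the sources used here. Nr2f2 itself, from base 70351944 to 70366735, had too few counts to pass the filter, with 1, 2, 0, 0, 1 and 2 UMIs in S cones and 9, 4, 15, 1, 2 and 4 in other cones. Its ratio was 0.0916 (0.0315 to 0.220), and with no filter on low counts its log2 difference was -3.04 ± 0.52 (standard error), with adjusted p = 4.58e-06.

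Of the 24 factors of photoreceptor fate and opsin patterning, 12 passed the filter and none was called, beside 2.27% over all genes tested. Their median log2 fold change was 0.09. Thrb had 364, 274, 375, 229, 374 and 319 CPM in S cones and 363, 244, 522, 273, 424 and 322 in other cones. The classes overlapped throughout, and the log2 difference was -0.17 ± 0.12 (standard error), with adjusted p = 0.718. The retinoid receptor Rxrg, a partner of Thrb, had 105 and 103 CPM on average (log2 0.11, adjusted p = 0.953), and Rorb had 307 ± 108 and 272 ± 51.3 (log2 0.25, adjusted p = 0.583). Vax2, under the filter, had 10, 5, 9, 3, 11 and 9 UMIs in S cones and 1, 1, 2, 1, 0 and 0 in other cones, a ratio of 5.02 (2.01 to 16.2), and log2 2.36 with no filter (adjusted p = 0.0054). Samd7, also under the filter, had 31 UMIs in S cones and 72 in other cones, a ratio of 0.230 (0.146 to 0.355), and log2 -1.95 with no filter (adjusted p = 2.73e-07).

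Further genes lower in S cones came from several pathways. Smug1, a uracil DNA glycosylase, fell by 1.42 on the log2 scale (adjusted p = 8.11e-08), and Car8, a relative of the carbonic anhydrases, fell by 1.32 (adjusted p = 1.35e-05). Nxnl2, a thioredoxin-like gene tied to photoreceptor survival, had 151, 165, 233, 138, 110 and 239 CPM in S cones and 289 to 656 in other cones. The classes did not overlap (log2 -0.91, adjusted p = 1.65e-07). Tshz2, a zinc finger factor, had 338 ± 59.7 CPM in S cones and 598 ± 143 in other cones (log2 -0.75, adjusted p = 7.56e-09). Gzmm (log2 -0.57), Rd3l (-0.51), Mgst3 (-0.74) and Ppa1 (-0.62) were lower with adjusted p from 9.25e-10 to 8.37e-05, Gzmm and Ppa1 without overlap. The neuronal pentraxins Nptx1 and Nptx2 fell by 1.08 and 1.00 on the log2 scale (adjusted p = 0.00105 and 0.00788), both without overlap and both chosen after their values were seen.

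**Figure D3:**
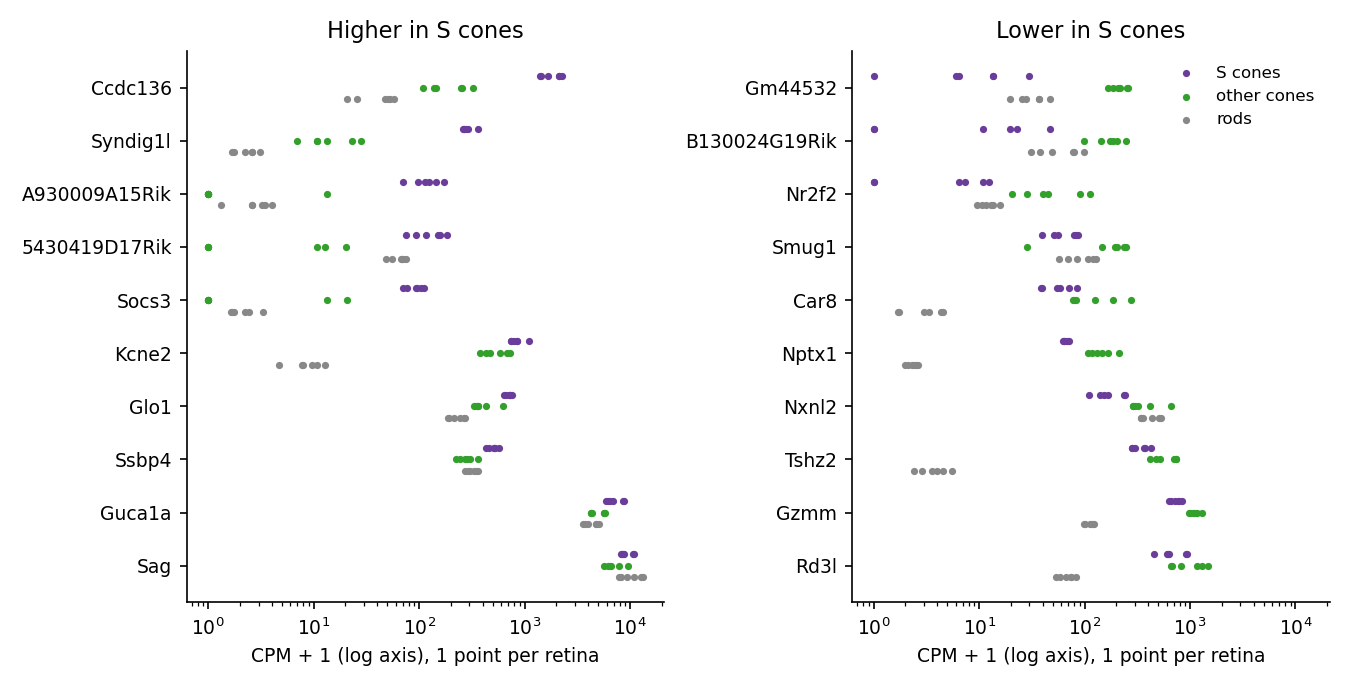
Levels of 20 genes in S cones (purple), other cones (green) and rods (grey), as CPM plus 1 on a log axis with 1 point per retina, genes higher in S cones on the left and lower on the right. Ccdc136 of S cones runs from 1403 to 2281 CPM, above the highest retina of other cones at 325 CPM. Gm44532 runs from 0 to 28.5 CPM in S cones against 164 to 256 in other cones.

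In the remaining lists at most 2 genes were called, beside 2.27% over all genes tested. Of 22 photoreceptor synapse genes, 18 were tested and only Stx3, the syntaxin of ribbon synapses, was called (log2 -0.37, adjusted p = 0.00632). Of 27 genes of autophagy and lysosomes, 9 were tested and the protease gene Ctsb was lower (log2 -0.46, adjusted p = 0.000761). None of 10 genes of the mitochondrial genome and none of 11 of stress and cell death was called. Of 34 cone and macular dystrophy genes, 21 were tested, with Guca1a higher and Cdhr1, a cadherin of the outer segment base, lower (log2 -0.47, adjusted p = 0.000272). Against these 64 calls, DESeq2 called 22 genes and the fit without the retina block 14, and each of the 64 kept its direction wherever it was tested. Ccdc136, Syndig1l, Gm26220, Glo1, Ssbp4, Smug1, Nxnl2 and Tshz2 were called in 15 of 15 other settings. Where S cones needed 10 times more Opn1sw than Opn1mw, and the mixed cells then counted as other cones, Ccdc136 was higher by log2 1.44, Syndig1l by 1.43, Gm26220 by 1.31 and A930009A15Rik by 1.23, and Socs3, 5430419D17Rik, Gm44532 and B130024G19Rik were not tested.

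In 3 of 6 measures per cell, S cones and other cones differed by small amounts in the same direction in 6 of 6 retinas. Mitochondrial genes took a smaller part of the UMIs of S cones in 6 of 6 retinas, by 0.157 percentage points. The part on the nuclear RNA Malat1 was higher in 6 of 6, by 0.442 points. Each gave p = 0.031 by an exact sign-flip permutation test, the smallest that 6 retinas allow. The adjusted p of this test was 0.0430 over 11 tests, which include those against rods, where differences are largely built in. No adjustment over the cone tests alone was made. The share on rod genes, given above, had the same p (0.031 by exact permutation). The number of genes seen at 500 UMIs was lower by 3.42 (exact permutation p = 0.0625), and median UMIs outside the 6 genes were 1889 ± 349 against 1863 ± 227 (SD, n = 6 retinas each, exact permutation p = 0.75). Summed markers of other cells overlapped in range between both cone classes, with bipolar markers at 9.22 to 13 UMIs per 10000 in S cones and 8.78 to 13.2 in other cones, glia markers at 6.27 to 11.7 and 5.98 to 11.8, and amacrine and ganglion cell markers at 0.0765 to 1.21 and 0.125 to 1.84. Of 12 amacrine and ganglion cell markers, 4 had no UMI in S cones (Gad1, Gad2, Slc32a1 and Rbpms) and 3 had none in other cones. Of 10 RPE markers, 4 had none in S cones (Rpe65, Lrat, Best1 and Tyrp1) and 4 had none in other cones. The remaining members of both lists were seen. The RPE list took 0.747 to 1.83 UMIs per 10000 in S cones, 0.771 to 2.46 in other cones and 0.948 to 2.24 in rods.

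The 425 S cones with an Opn1mw UMI were set beside the 186 without one, a division made after the data were seen and on an opsin of the rule, so it is described without a test. Cells without an Opn1mw UMI were shallower, with a median of 1674 against 1963 UMIs, and both held like amounts of Opn1sw, a median of 48 and 49 UMIs. Thrb, the receptor gene, had 115 ± 32.6 CPM in S cones without Opn1mw and 394 ± 70.3 in those with it (SD, n = 6 retinas each), higher with Opn1mw in 6 of 6 retinas, and 358 ± 103 in other cones. S cones with both opsins overlapped in range with other cones, and S cones without Opn1mw stood below every retina of either, although their counts were only 7, 4, 8, 3, 7 and 3 UMIs.

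Of the 1366 genes that passed the filter in these sums, 74 (5.42%) were higher with Opn1mw in 6 of 6 retinas and 36 (2.64%) were lower in 6 of 6. The genes named here were chosen from them after their values were seen. Tshz2 had 106 ± 77.2 CPM without Opn1mw and 420 ± 82.6 with it, and Rd3l had 345 ± 140 and 808 ± 200 (SD, n = 6 each). Gzmm had 433 ± 135 and 837 ± 104, and Ctsb 314 ± 54.0 and 501 ± 69.4. These 4 genes were also lower in S cones than in other cones, and their levels in S cones with Opn1mw lay nearer to those of other cones. Kcne2 and Syndig1l, which were higher in S cones as a whole, were also higher in the cells with Opn1mw (588 ± 148 against 929 ± 158, and 203 ± 32.8 against 315 ± 58.7 CPM).

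Among those lower with Opn1mw in 6 of 6 retinas, Guca1b had 909 ± 102 CPM without Opn1mw and 510 ± 87.7 with it, a retina mean log2 difference of -0.85, beside 491 ± 122 in other cones. Rorb had 414 ± 151 and 270 ± 89.5 CPM, and Pdc 3712 ± 608 and 2750 ± 436. Ccdc136 had 2165 ± 479 and 1723 ± 337 CPM, both far above the 203 ± 85.4 of other cones. Gngt2, Sag, Mir124-2hg and Six6 were lower by log2 -0.29, -0.26, -0.56 and -0.45.

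**Figure D4:**
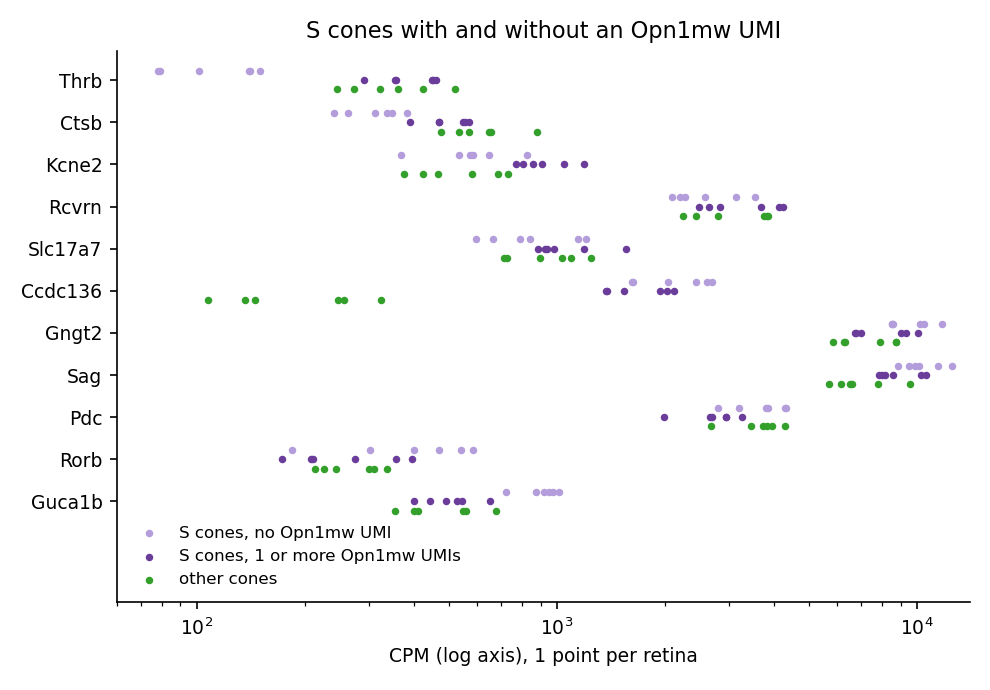
CPM (log axis, 1 point per retina) of 11 genes in S cones without an Opn1mw UMI (light purple), S cones with 1 or more (dark purple) and other cones (green). Thrb of S cones without Opn1mw lies below the points of both other classes, while Ccdc136 of both S cone classes lies above every point of other cones.

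Against rods, S cones differed in 3551 of 10546 genes tested (33.7%), 1800 higher (17.1%) and 1751 lower (16.6%), by edgeR with the retina as a block. Since cone genes chose the cells, a difference in genes that go with them is largely built in. S cones were deeper, with 1726 to 2604.5 UMIs in the median cell against 392 to 496 in rods. At 500 UMIs per cell, S cones showed 391 genes against 351 in rods, higher in 6 of 6 retinas (exact permutation p = 0.031). Malat1 took 9.27% ± 2.29 of the UMIs of the median S cone and 16.2% ± 3.43 in rods (SD, n = 6 retinas each), lower in S cones in 6 of 6, and mitochondrial genes took 1.32 percentage points more in 6 of 6 (exact permutation p = 0.031 each). Other cones lay nearer to S cones than to rods in these measures. Their means over retinas were 395 genes, 8.83% on Malat1 and 2.25% on mitochondrial genes, the last against 2.09% in S cones and 0.772% in rods.

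Several cone genes of the light response outside the rule were far higher in S cones than in rods. Cngb3 and Cnga3, both subunits of the cone channel that closes in light, had 405 ± 130 and 80.9 ± 21.5 CPM in S cones and 1.72 ± 0.313 and 0.367 ± 0.408 in rods (SD, n = 6 each, log2 7.70 and 7.42, adjusted p = 8.24e-152 and 5.73e-55). Gngt2 had 7426, 7278, 9494, 9804, 7264 and 10088 CPM in S cones and 83.9 to 160 in rods (log2 6.16, adjusted p = 1.43e-199). Gnb3 and the cone exchanger Slc24a2 were higher by log2 4.77 and 6.21 (adjusted p = 2.03e-174 and 5.85e-82), and Kcne2 and Ccdc136 by 6.62 and 5.39 (adjusted p = 5.22e-186 and 2.05e-182). Of the 20 genes of the list, 9 were higher and 8 lower, beside 17.1% higher and 16.6% lower over all genes tested. Their median was 0.07, beside -0.05 over all genes. Among the lower ones were the cyclase Gucy2f (log2 -2.94, adjusted p = 6.45e-18), Guca1b (-2.45, adjusted p = 3.21e-86) and recoverin, Rcvrn (-0.36, adjusted p = 9.23e-05), which rods share.

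All 19 rod genes tested were lower in S cones, beside 16.6% over all genes tested, with a median log2 fold change of -2.43. Gnb1 had 891, 821, 1512, 1094, 1497 and 1149.6 CPM in S cones and 9053 to 12719.9 in rods, and the classes did not overlap. Gnb1 (log2 -3.43), the rod channel subunit Cnga1 (-3.64), the exchanger Slc24a1 (-3.28), Pde6b (-3.03) and Gnat1 (-2.64) fell with adjusted p from 4.22e-126 to 6.62e-97, and the rod factors Nrl and Nr2e3 by 3.13 and 3.31 on the log2 scale (adjusted p = 1.79e-101 and 6.91e-100). Sag was the least lower, by log2 -0.28 (adjusted p = 0.00363), with 9286 ± 1197 CPM in S cones and 10349 ± 2222 in rods, and Pde6g followed at -0.74 (adjusted p = 2.26e-16). The part of free rod RNA in the S cone values was not tested.

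**Figure D5:**
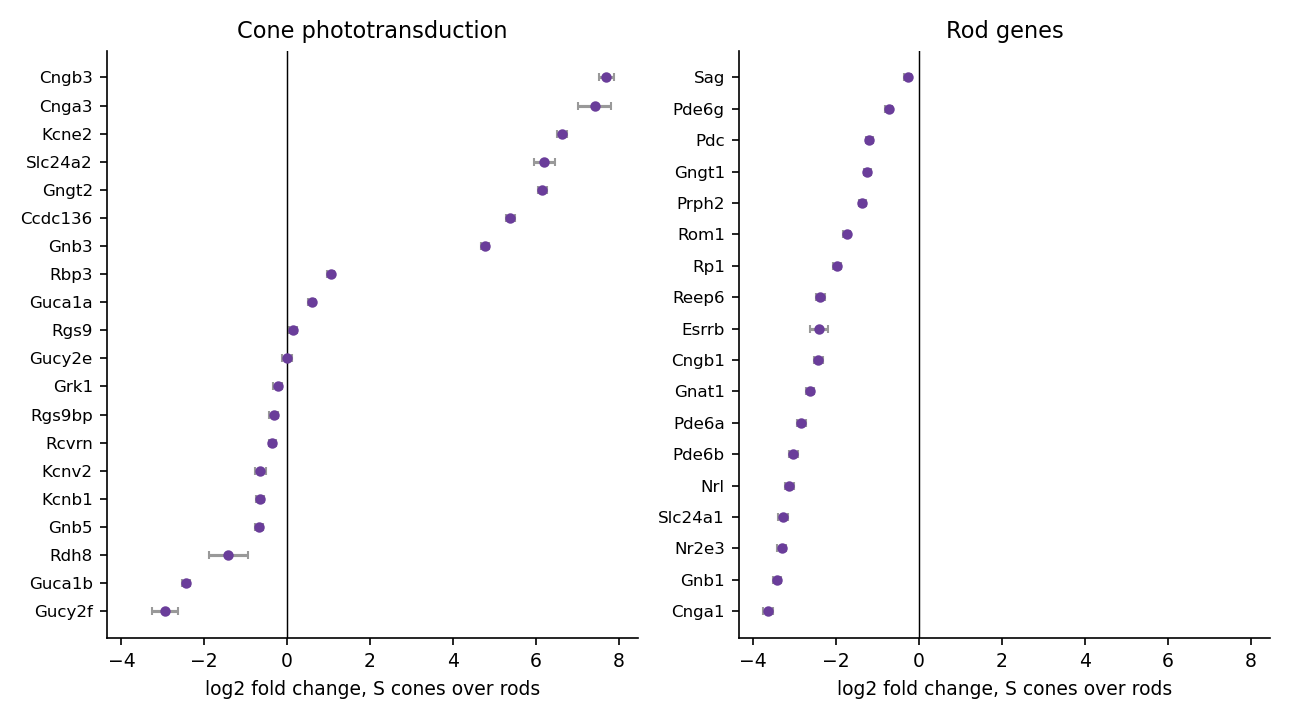
Fitted log2 fold changes of S cones over rods (x axis, points with standard errors) for 20 cone phototransduction genes (left) and 18 of the rod genes (right). Cngb3 and Cnga3 stand highest at 7.70 and 7.42, and the rod genes shown lie left of 0, from Sag at -0.28 to Cnga1 at -3.64.

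Fate factors and synapse genes were called in both directions, as were genes in general, of which 17.1% were higher and 16.6% lower. Of 18 fate factors tested, 7 were higher in S cones and 6 lower, with a median of 0.14 beside -0.05 over all genes. Sall3 (log2 7.06, adjusted p = 2.69e-55), Rxrg (6.48, adjusted p = 8.53e-62), Lhx4 (3.81, adjusted p = 1.16e-18) and Thrb (1.73, adjusted p = 3.2e-42), all factors with roles in cones, were higher. Samd7 (log2 -2.66, adjusted p = 9.81e-32), Mef2c (-2.44, adjusted p = 8.15e-67), Vax2 (-1.55, adjusted p = 5.96e-14) and Rorb (-1.39, adjusted p = 8.99e-33) were lower. Of 22 synapse genes, 9 were higher and 7 lower, and the complexins parted, with Cplx3 at 936 ± 68.5 CPM in S cones against 55.1 ± 21.9 in rods (log2 3.97, adjusted p = 3.57e-141) and Cplx4 at 593 ± 56.0 against 1194 ± 106 (log2 -1.15, adjusted p = 4.07e-29). The vesicular glutamate transporter Slc17a7 and synaptophysin, Syp, were higher by log2 1.23 and 1.19 (adjusted p = 2.32e-35 and 8.71e-34).

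Of 12 genes of the mitochondrial genome, 10 were higher in S cones and none lower, with a median of 0.96. The level of mt-Co1 was 1298, 1711, 4703, 2432, 1640 and 3344 CPM in S cones and 201, 277, 1169, 462, 323 and 906 in rods (log2 2.16, adjusted p = 4.98e-82). Both classes were high in the batch 1 retinas, and S cones stood above rods within each retina. Of 22 genes of glycolysis and energy supply 7 were higher and 7 lower, of 25 of autophagy and lysosomes 9 and 3, of 24 of stress and cell death 3 and 7, and of 28 dystrophy genes 5 and 11, beside 17.1% higher and 16.6% lower over all genes tested. The genes with the smallest p beyond these lists were Tmsb10, an actin-binding peptide (log2 7.94, adjusted p = 4.05e-201), with its near copies Gm9844 and Gm13588, among which the reads cannot be placed with certainty. They were followed by Sphkap (log2 5.98), the adrenergic receptor gene Adrb1 (7.47) and Fam19a3 (6.34), with adjusted p from 1.01e-162 to 3.66e-158, and, on the lower side, Vax2os (-2.95, adjusted p = 6.86e-98).

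Haemoglobin RNA was the other large difference from rods. All 4 red blood cell genes tested were lower in S cones, with a median of -5.99, among them Hbb-bs (log2 -4.86, adjusted p = 3.66e-104). The red blood cell list took 0.171 to 0.791 of 10000 UMIs in S cones, 0.250 to 0.890 in other cones and 3.04 to 25.5 in rods. In rods it lay mostly in the deepest cells, since 1962 rods with at least 1000 UMIs held 21904 of its 27565 UMIs. S cones of that depth had 0.178 to 0.799 of 10000 UMIs. The part of blood RNA in the rod values was not tested. Markers of other cells were called in both directions, beside 17.1% higher and 16.6% lower over all genes tested. Of 8 bipolar genes tested, 2 were higher, among them Sebox (log2 1.65, adjusted p = 3.83e-07), and Prkca (-3.13, adjusted p = 8.23e-60) and Pcp2 (-0.58, adjusted p = 0.0116) were lower. Of 8 glial genes, Clu was higher (log2 1.84, adjusted p = 1.6e-49) and Glul lower (-0.44, adjusted p = 0.0072), and none of 5 microglial genes was called.

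Between genotypes, the S cones of both kinds of retina were compared to ask whether loss of Dram2 changes these cells. No gene of 3608 was called by edgeR (0%), by limma-voom or by DESeq2, and 62 genes had an unadjusted p under 0.05 (1.72%), 56 by limma-voom and 9 by DESeq2. That count was 107 with batch as a covariate and 114 with the replicate block. It was 28 without wt/wt replicate 1, 35 without wt/wt replicate 2, 191 without wt/wt replicate 3 and 166 without ko/ko replicate 2, and 0 genes were called in each of these fits. On simulated counts the edgeR test recovered 10.8% of changes of 1 on the log2 scale and 99% of those of 2. Changes of 1 or less could thus mostly be missed. Dram2 had 4, 11 and 10 UMIs in wt/wt S cones and 4, 6 and 9 in ko/ko, or 43.2 ± 18.9 and 36.1 ± 7.60 CPM (SD, n = 3 each). The deletion lies outside the 3′ end that is counted, so these counts do not check the labels.

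The genes with the smallest p, none of them called (adjusted p = 1.00 each), are given by their values. Bag6, a chaperone of the proteasome path, had 69.0, 85.6 and 79.1 CPM in wt/wt, below the 191, 127 and 159 of ko/ko, without overlap (log2 1.01, standard error 0.30). Itm2c had 95.2 ± 13.4 CPM in the controls and 164 ± 28.5 in the knockouts and Mogat1 79.5 ± 4.04 and 148 ± 52.4, also without overlap, while Tdrd7 and Psma6 overlapped (log2 0.95 and 0.90). Ap3m2, an adaptor subunit of lysosomal sorting, had 132, 103 and 75.0 CPM in wt/wt, above the 45.9, 38.5 and 44.8 of ko/ko (log2 -1.21, standard error 0.38). Rpl28 (log2 -1.44), Fance (-1.34), Hspa12a (-1.03) and Ptprg (-1.03) had lower values in ko/ko without overlap. Over all genes tested, 278 (7.71%) did not overlap between genotypes, 127 above (3.52%) and 151 below (4.19%).

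Genes that marked S cones against other cones did not pass the test between genotypes. Ccdc136 had 1948 ± 449 CPM in controls and 1738 ± 370 in knockouts (SD, n = 3 each, log2 -0.15, standard error 0.26), and Guca1a 6342 ± 467 and 7938 ± 1230 (log2 0.34, standard error 0.22). Kcne2 had 797, 741 and 742 CPM against 849, 847 and 1095, and Sag 8222, 8424 and 8636 against 10928, 8821 and 10685, both without overlap but with adjusted p = 1.00. List medians lay near the 0.01 of all genes, at -0.09 for cone phototransduction, 0.13 for rod genes, -0.02 for fate factors, 0.11 for glycolysis and energy supply and -0.15 for the mitochondrial genome, and no gene of these lists had an unadjusted p under 0.05. The level of mt-Nd4 was 1267, 1226 and 6915 CPM in controls and 1759, 1673 and 5071 in knockouts, with both batch 1 retinas far above the rest.

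The effect of the knockout was not shown to differ between S cones and other cones. The interaction of genotype and cone class was tested in 2816 genes, and none was called by edgeR, limma-voom or DESeq2 (0%), while 127 (4.51%), 144 and 14 passed 0.05 before adjustment. The smallest p belonged to Nr2e3, with a knockout effect lower in S cones by log2 -1.12 (standard error 0.33, adjusted p = 0.724), and to Aplp1, higher by 0.74 (standard error 0.23, adjusted p = 0.724). Aplp1, a relative of the amyloid precursor protein, had 564, 411 and 325 CPM in wt/wt S cones, 642, 611 and 622 in those of ko/ko, and 513, 522 and 379.5 against 574, 405 and 352 in other cones. Etfb, Cabp4, Bag6 and Slc25a3 had positive values from log2 0.68 to 1.57, and Smim19, Reep6 and Ptp4a3 negative ones from -1.65 to -0.69, with adjusted p from 0.724 to 0.818. Other cones were few in single retinas, down to 23 cells in ko/ko replicate 1. On simulated counts the edgeR interaction test recovered 29.9% of changes of 1 on the log2 scale.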

How the data were processed

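Single-cell suspensions of 6 mouse retina samples, 3 per genotype, were read with a 10x 3′ kit. The authors aligned the reads with Cell Ranger 3.1.0 to GRCm38 (mm10) with exonic reads only and deposited UMI counts per gene and cell, which are whole counts that were not normalized. The authors' cell types, from clusters of integrated data, were deposited with the cells and used here for the label photoreceptor. Whether counting used strand is not given in the sources used here. The identifiers of the cells are not droplet barcodes, so barcodes shared by libraries could not be counted. Of 52636 gene identifiers, 52403 matched the GENCODE M21 annotation of that build.

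S cones, other cones and rods were defined per cell as the opening states, and counts were summed per retina and class, leaving out the 6 genes of the rule. 252 photoreceptors fell in no class. The classes were compared with edgeR 4.0.16 (TMM scaling, filterByExpr, quasi-likelihood test, R 4.3.3), with the retina as a block between classes, and every p was adjusted over all genes tested by the Benjamini-Hochberg method at 0.05. limma 3.58.1 (voom) and DESeq2 1.42.0 were alternatives, and scripts were tested on simulated counts. Values per retina were compared by exact permutation. Python 3.11.15 with scipy 1.17.1 and scanpy 1.11.5 did the rest. Wilson intervals and the intervals of count ratios cover counting error only. The S cones of a retina held 139117 to 255136 UMIs.

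The members and gene lists were chosen with earlier results of these data known. Genes named are the 6 of the rule, Dram2, members of the lists, and in each comparison the 10 called genes with the smallest p in each direction, or 5 in each direction where none was called. Others were chosen after their values were seen (Calu, Atp6v1f, Ssbp4, Nptx1, Nptx2, Six6 and the division of S cones by Opn1mw). The doublet caller Scrublet marked 3 of 46375 cells, too few for its calls to be relied on, so no cells were removed as doublets. As an alternative the cells with scores above the cut for the top 5% of each retina were left out. These were 3.81% of all cells, among them 38 S cones (6.22%), 29 other cones (9.21%) and 3.22% of rods. Per the labels the replicates are separate samples. Over the 15 pairs of libraries, chi-square per degree of freedom of the counts ran from 1.67 to 33.2, and the lowest was between wt/wt replicates 1 and 2. A few genes that the rule names are not reported here.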

Additional observations from a re-analysis of the deposited data

Results flagged for a closer look

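Among the cells that carried the label interneuron, outside the photoreceptors used above, 28 met the same 3 conditions on the 6 cone genes. They were 5, 3 and 11 cells in wt/wt and 2, 5 and 2 in ko/ko, or 1.34% of 2083 such cells (Wilson 95% interval 0.932% to 1.94%). They were picked out as a cone signal in cells that no comparison used. Their median was 3579 UMIs, against 1844 in all cells with this label, and Opn1sw stood at 14955 CPM against 27501 in S cones pooled. Bipolar cell markers took 35.9 of 10000 UMIs in them, between the 10.9 of S cones and the 120.5 of all interneurons, and amacrine and ganglion cell markers took 6.39 of 10000, against 0.634 and 30.3. Of the 28 cells, 8 (28.6%) were among the highest doublet scores, against 9.12% of all interneurons, from a caller whose own calls were not relied on. Whether they hold RNA of more than 1 cell was not tested.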

How the results depend on the processing

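Between S cones and other cones, 64 genes were called, against 22 under DESeq2, 14 with no replicate block, 86 without a filter on low counts (67 higher and 19 lower, 42 of the 64 among them) and 45 to 58 without 1 retina each. Where Opn1sw had to be 10 times Opn1mw, 51 were called, 35 of the 64 among them. Every one of the 64 kept its direction wherever it was tested. Against rods the count was 2450 without the retina block, 2724 by DESeq2, 4239 without a filter (1528 higher and 2711 lower, with a median log2 of -0.68 over all genes) and 3164 to 3338 without 1 retina each. Between genotypes no alternative made a call in S cones, and none was made for the interaction.

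The genotype difference in S cones as a percent of cones ran from -0.102 to 7.31 points without 1 retina each and that as a percent of photoreceptors from -0.487 to -0.149. Medians per cell turned direction in places. For the genotype difference without 1 retina each, UMIs outside the 6 genes ran from -194.5 to 249, genes at 500 UMIs from -3.25 to 1.25, and the percent of UMIs on mitochondrial genes from -0.891 to 1.18, on Malat1 from -2.33 to 0.183 and on ribosomal protein genes from -0.0905 to 0.196. The value of UMIs outside the 6 genes, median, S cones minus other cones, ran from -24.7 to 56.9 and was -9.25 when cells under 500 UMIs or over 10% mitochondrial UMIs were dropped, and ribosomal protein genes ran from -0.0521 to 0.00615. The cause was not tested. Tests over retinas without 1 of them rest on 5 pairs and cannot pass 0.05.

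Retinas of equal replicate number were tried as pairs, a replicate block. The correlations of their deviations over 3608 genes were -0.0244, 0.369 and 0.419 for replicates 1, 2 and 3. Replicate 3 of both genotypes also shares a batch. Since the first pair did not deviate together, the numbers were not taken as pairs. The block left 0 genes called between genotypes, and 4.61 points (exact permutation p = 0.50) and -0.371 points (exact permutation p = 0.50) for the shares. Replicates 2 and 3 correlated best with their own number and replicate 1 did not. With 85 to 125 S cones per retina, genes of low count mostly fell under the filter.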
